A study of Mus musculus with 20 samples.

Results

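The ectodysplasin receptor Edar, its ligand Eda, its adaptor Edaradd and the related receptors Eda2r and Tnfrsf19 were followed in whole mouse trachea. Members were all non-control probes that the array names Eda, Edar, Edaradd, Eda2r (or Xedar) or Tnfrsf19, which gave 8 of 41174 probes and 5 of 27670 gene names. Of these 8 probes, 5 were tested, 1 for each gene, because they lay well above background on 10 or more arrays of the 20. The other 3, Eda2r probes 2 and 3 and Tnfrsf19 probe 2, were not tested. The group of genes was chosen by the measured values of Edar, which the study listed for its genotype difference in uninjured tracheas among transcripts without a call after injury. For Edar, the differences in those 3 comparisons are a description and carry no test here.

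The mice were C57/Bl6, 4 months old, either wild-type or Myd88KO, a knockout of Myd88, the adaptor through which Toll-like and interleukin-1 receptors reach NF-kB. By the study's methods, the knockouts were back-crossed and then bred among themselves, and wild-type mice came from a separate colony. Genotype and colony therefore cannot be told apart here. Within each genotype, tracheas came from uninjured mice or from mice collected 3 days after 2% polidocanol, a detergent given into the airway that strips the tracheal epithelium. There were 5 arrays in each of the 4 groups, described in the study as biological replicates. The study's methods name both male and female mice, and the sex of each mouse was not in the labels. Whole tracheas hold epithelium, glands, cartilage, muscle and attached connective tissue, and the knockout was not limited to any of these cells. In such tissue, fewer cells of a type and less RNA per cell cannot be told apart.

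Ectodysplasin is a ligand of the tumour necrosis factor family that is shed from the cell surface after cleavage by furin. Its splice forms differ in whether they bind Edar or Eda2r. Edar carries a death domain that recruits Edaradd, which passes the signal through Traf6, the Tab proteins and Map3k7 to the IkB kinase complex and NF-kB. The pathway is best known for the placodes of hair, teeth and exocrine glands, and mice without Eda or Edar lack tracheal submucosal glands. Tnfrsf19 (Troy) is a related receptor of the same family and is known as a target of Wnt signalling.

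Promoter windows of 300 bases, from 250 before to 50 after the annotated start, were taken from RefSeq (GRCm38.p6), in which all 5 genes matched. Edar and 1 of the 2 Tnfrsf19 starts are shown because their windows held CTTTGAT, letters to which the Wnt effectors of the TCF/LEF family bind, searched on both strands and written in capitals.
Edar, chr10:58675647-58675946, minus strand: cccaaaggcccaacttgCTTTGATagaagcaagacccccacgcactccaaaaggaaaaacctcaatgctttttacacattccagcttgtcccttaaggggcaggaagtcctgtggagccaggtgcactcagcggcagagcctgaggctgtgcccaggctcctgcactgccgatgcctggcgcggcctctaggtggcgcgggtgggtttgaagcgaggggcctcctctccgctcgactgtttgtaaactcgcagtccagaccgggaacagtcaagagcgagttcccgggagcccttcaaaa
Tnfrsf19, chr14:61037938-61038237, minus strand: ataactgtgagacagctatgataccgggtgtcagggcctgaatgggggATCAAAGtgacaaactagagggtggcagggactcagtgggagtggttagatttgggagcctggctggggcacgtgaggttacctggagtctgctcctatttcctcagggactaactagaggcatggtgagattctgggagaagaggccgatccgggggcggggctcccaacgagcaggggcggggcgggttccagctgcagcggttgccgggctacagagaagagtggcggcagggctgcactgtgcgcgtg
In the Edar window the match covered bases 233 to 227 before the start, on the strand of the gene. In the Tnfrsf19 window it covered bases 202 to 196 before the start and lay on the opposite strand. Of 32851 RefSeq windows of the same length, 3.73% held CTTTGAT. The related letters CTTTGAA and CTTTGTT, held by 5.14% and 5.85% of all windows, were in none of the windows of the 5 genes. The kappa B consensus, to which NF-kB binds, was held by 8.46% of windows and by none of those of the 5 genes. These matches describe letters in a window and are not binding sites.

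The arrays were 1-colour Agilent arrays, and every level below is a log2 intensity with the 75th percentile of each array placed at 0. Levels of different probes are not comparable. The 75th percentile lay between 495 and 972 intensity units and 57.5% to 67.8% of spots were well above background. The 20 arrays lay on 5 slides and were scanned on 2 days, with replicates 2, 3 and 4 on day 1 and replicates 1 and 5 on day 2 in every group. The Myd88 probe, which targets the deleted gene, read 1.94 to 2.28 in uninjured wild-type, 1.60 to 2.04 in uninjured Myd88KO, 2.36 to 2.80 in injured wild-type and 1.54 to 2.09 in injured Myd88KO tracheas. The uninjured groups overlapped (difference -0.21 ± 0.14 SE, adjusted p = 1.00, limma) and the injured groups did not (-0.77 ± 0.14, adjusted p = 0.00824, a call lost under 27 of 35 alternatives). Whether this probe lies within the deleted part of the gene is not given in the sources used here, so it neither checks nor contradicts the labels. All 8 basal, 6 club and 7 ciliated marker genes of the airway epithelium passed the filter on dim probes, as did all 6 cartilage genes. Among the injured Myd88KO arrays, replicates 1, 3 and 5 stood apart in epithelial and myeloid markers. Their mean club cell marker levels were 7.31, 6.44 and 8.15, against 5.37 and 5.43 in replicates 2 and 4 and 5.04 to 5.90 in injured wild-type tracheas. Their ciliated cell markers read 2.77, 1.05 and 1.54, against -0.65 and -1.42 in replicates 2 and 4 and -1.59 to 0.68 in injured wild-type tracheas. Their myeloid markers read 0.26, -0.08 and -1.14, against 2.33 and 2.68 in replicates 2 and 4 and 1.98 to 4.03 in injured wild-type tracheas. For all 3 lists these arrays lay outside the range of the injured wild-type arrays. Uninjured Myd88KO tracheas lay at 7.93 to 8.40 for club, 1.09 to 1.37 for ciliated and -1.28 to 0.05 for myeloid markers. The extent of injury in these 3 tracheas was not tested. The members' differences that use injured Myd88KO tracheas were also computed without these 3 arrays, an alternative added after the data were seen, which leaves 2 arrays in that group.

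Edar was highest in uninjured Myd88KO tracheas and lowest in injured wild-type tracheas. Its probe (chromosome 10, 58119240 to 58119298, minus strand, genome build not stated in the files) was well above background on all 20 arrays, at intensities of 50.4 to 223. In replicates 1 to 5 it read -2.68, -2.72, -2.53, -2.57 and -2.95 in uninjured wild-type tracheas. In uninjured Myd88KO tracheas it read -1.98, -1.93, -1.54, -2.03 and -2.08. All 5 knockout arrays lay above all 5 wild-type arrays, with a gap of 0.44 between the groups. After injury the wild-type arrays read -3.52, -3.15, -3.17, -2.90 and -3.34. The injured Myd88KO arrays read -2.62, -2.96, -2.76, -2.88 and -2.50. Injured Myd88KO and uninjured wild-type tracheas covered much the same range of Edar levels.

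**Figure D1:**
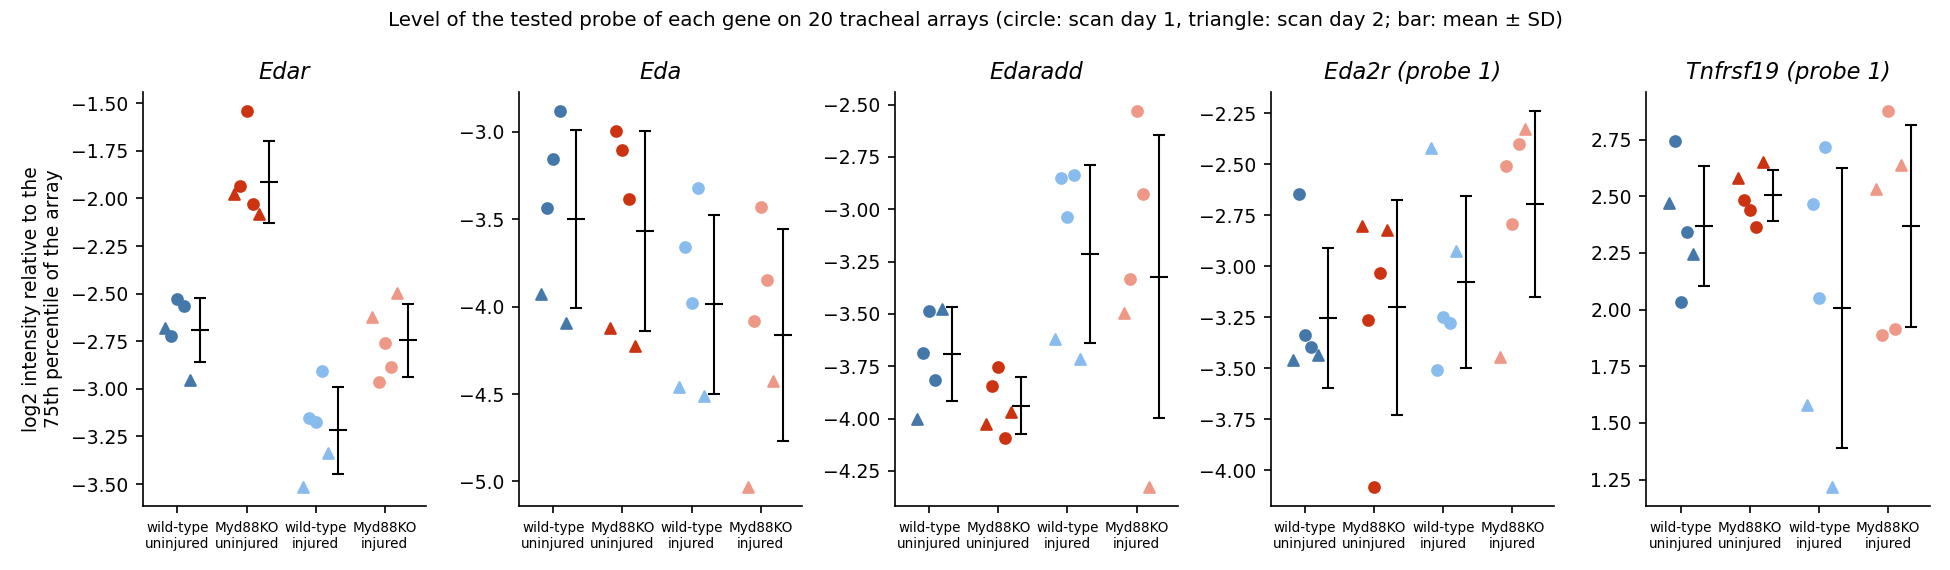
Level of the tested probe of each gene (y axis, log2 intensity relative to the 75th percentile of the array, a separate scale in each panel) on every array, by group; circles are arrays of scan day 1, triangles arrays of scan day 2, and bars the mean ± SD of 5 arrays. The uninjured Myd88KO arrays stand above all others for Edar, whereas no group stands apart from all others for the other 4 genes, and the scan day 2 arrays are the lowest of each group for Eda. Edar was listed for its difference between the uninjured groups, so its place is a description with no test. The share of all tested probes that stand apart in this way was not computed.

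Between uninjured tracheas the Edar level was 0.78 ± 0.14 (SE, n = 5 per group) higher in Myd88KO on the log2 scale, with a 95% interval of 0.47 to 1.08 on that scale. This was a 1.71-fold difference. This is the difference on which Edar was listed, so its interval is a description and carries no test. Across all tested probes, 1.71% were higher in uninjured Myd88KO without overlap and 0.384% were called in either direction at an adjusted p under 0.01. The difference was 0.77 in the 3 arrays per group of scan day 1 and 0.78 in the 2 of scan day 2. Within the shared replicate numbers, Edar was higher in the knockout in 5 of 5, by 0.54 to 0.99.

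Edar was lower after injury in both genotypes. In wild-type tracheas the mean level moved from -2.69 ± 0.17 (SD) to -3.22 ± 0.23, a difference of -0.53 ± 0.14 (SE), lower in 5 of 5 replicate numbers, although the 2 groups overlapped by 0.05. In Myd88KO tracheas it moved from -1.91 ± 0.22 to -2.74 ± 0.19, a difference of -0.83 ± 0.14 and a 1.78-fold lower level. The 2 Myd88KO groups did not overlap, as for 2.3% of all tested probes in this direction. Called in either direction were 5.26% of tested probes in wild-type and 0.376% in Myd88KO tracheas, the latter 98 probes against 1968 without injured Myd88KO replicates 1, 3 and 5. By scan day the wild-type difference was -0.47 and -0.61, and the Myd88KO difference was -1.04 and -0.53. Without injured Myd88KO replicates 1, 3 and 5 the Myd88KO difference was -1.01. With another background correction (normexp) the wild-type difference was -0.31.

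The genotype difference of Edar in injured tracheas did not pass the test. The mean level was 0.47 ± 0.14 (SE) higher in injured Myd88KO than in injured wild-type tracheas (limma, adjusted p = 0.168, unadjusted p = 0.00408, 95% interval 0.17 to 0.78). Edar was higher in the knockout in 5 of 5 replicate numbers, by 0.02 to 0.90, while the 2 groups overlapped by 0.06. Of all tested probes, 0.38% were called in this comparison. The difference was 0.21 on scan day 1 and 0.87 on scan day 2, and 0.20 with normexp background correction. The 3 injured Myd88KO arrays that stood apart in epithelial and myeloid markers read -2.62, -2.76 and -2.50 for Edar, all above the other 2 at -2.96 and -2.88, and both injured Myd88KO arrays of scan day 2 were among them. Without these 3 arrays the difference was 0.29 ± 0.19 (adjusted p = 0.904). The part of the epithelial and myeloid cells in it was not tested. Because transcripts with a call after injury were left out of the study's list, the injured arrays entered the choice of Edar in part and this comparison is not fully independent of it. The injury response of Edar was 0.30 ± 0.20 further below 0 in Myd88KO than in wild-type tracheas (difference of responses -0.30, and -0.48 without the same 3 arrays). This difference is built from the values on which Edar was listed, so it is a description and carries no test.

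In order of mean Edar level, the groups were uninjured Myd88KO, uninjured wild-type, injured Myd88KO and injured wild-type. The second and the third of these, at -2.69 ± 0.17 and -2.74 ± 0.19 (SD), did not differ beyond their spread.

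A marker list of adipocytes, like Edar, had a higher mean in uninjured Myd88KO than in uninjured wild-type tracheas. The mean level of its 5 tested genes lay between 3.61 and 4.70 in uninjured wild-type and between 5.07 and 5.37 in uninjured Myd88KO tracheas, with no overlap, while none of its 7 probes was called and Lep did not pass the filter. Their differences ran from 0.49 for Cidec to 2.42 for Ucp1, the uncoupling protein of brown fat, with a median of 0.67 against 0.04 over all tested probes. Within each uninjured group, replicate 3 had the lowest level of this list (3.61 in wild-type, 5.07 in Myd88KO) and the highest Edar level (-2.53 and -1.54). After injury the list covered 2.80 to 5.10 in wild-type and 3.70 to 5.36 in Myd88KO tracheas. With the list's level as a covariate, an alternative added after the data were seen, the Edar difference between uninjured genotypes was 0.67 and that between uninjured and injured Myd88KO tracheas -0.74. The 5 genes of the list for myoepithelial and smooth muscle cells also lay higher in uninjured Myd88KO without overlap, at 5.35 to 5.67 against 4.97 to 5.29, with none of 9 probes called. All other lists overlapped between the uninjured groups. Among them, the epidermis list (3 tested genes) read 2.94 in uninjured wild-type replicate 3. The rest of that group read -1.58 to -0.75, and uninjured Myd88KO tracheas -1.88 to -1.28. Injured Myd88KO replicates 1 and 2 read 0.35 and 0.42, the rest of that group -1.77 to -1.49. The part of these tissues in the Edar values was not tested.

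No probe around Edar on chromosome 10 was called between the uninjured genotypes. Of 120 tested probes of 80 genes within 5 Mb of it, and of 158 within 10 Mb, 0 passed the test (limma). Of all 26063 tested probes 0.384% passed it, so a count of 0 is near that share. The differences of these 158 probes ran from -0.76 to 0.54 with a median of 0.01, all below that of Edar. Edar was listed for this same difference, so its place above them was in part set by that choice and carries no test. After injury of wild-type tracheas, 5.26% of all tested probes were called, and within 5 Mb of Edar it was 2.5%, or 3 probes. These were Tbata (adjusted p = 0.000547, 1 of 2 probes), ENSMUST00000036576 at -1.39 (adjusted p = 0.00769, 1 of 2 probes, lost under 16 of 35 alternatives) and Pald1 at 0.67 (adjusted p = 0.00672, lost under 13 of 35). The called Tbata probe was well above background on 5 of 5 uninjured and 0 of 5 injured wild-type arrays, so that its level was at least 4.27-fold lower after injury, taken against the lowest signal well above background on each injured array. It was also called in Myd88KO tracheas (adjusted p = 0.00835, lost under 25 of 34 alternatives), where 1 of 5 injured arrays had a signal well above background, the groups overlapped and 1 of 5 replicate numbers was not lower.

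**Figure D2:**
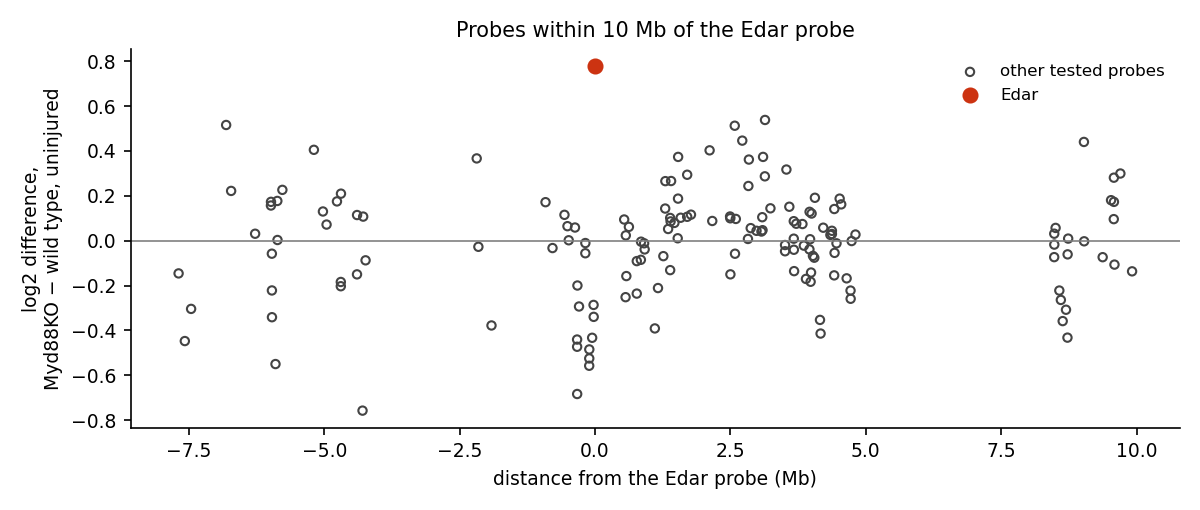
Difference between uninjured Myd88KO and wild-type tracheas (y axis, log2) of the tested probes within 10 Mb of the Edar probe, against their distance from it (x axis, Mb). Edar (filled, 0.78) lies above the other 158 probes, which run from -0.76 to 0.54. Edar was listed for this same difference, so its place above them is a description with no test.

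Eda, the ligand, showed no called change in any comparison. Its probe (X chromosome, 95727364 to 95727423, plus strand) was well above background on 18 of 20 arrays, at intensities of 22.9 to 114.5. Replicates 1 to 5 read -3.93, -3.44, -3.16, -2.88 and -4.09 in uninjured wild-type tracheas and -4.12, -2.997, -3.10, -3.38 and -4.22 in uninjured Myd88KO tracheas. They read -4.46, -3.66, -3.98, -3.32 and -4.51 in injured wild-type tracheas and -5.03, -4.08, -3.43, -3.85 and -4.42 in injured Myd88KO tracheas. Replicates 1 and 5, the arrays of scan day 2, were the lowest of each of the 4 groups, and scan day 2 lay 0.91 below scan day 1 on average. The genotype differences were -0.07 ± 0.33 (SE) in uninjured and -0.18 ± 0.33 in injured tracheas (adjusted p = 1.00 and 0.872). After injury the Eda level was lower in 5 of 5 replicate numbers of both genotypes, with differences of -0.49 ± 0.33 in wild-type (adjusted p = 0.371) and -0.60 ± 0.33 in Myd88KO tracheas (adjusted p = 0.331). The latter was -0.40 without injured Myd88KO replicates 1, 3 and 5. The values within scan days were -0.50 and -0.47 in wild-type and -0.63 and -0.56 in Myd88KO. With the scan day as a block, the adjusted p of these differences was 0.0388 and 0.0277, still above 0.01.

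Edaradd, the adaptor, had lower mean levels in uninjured than in injured tracheas of both genotypes, without a call. Its probe (chromosome 13, 12439124 to 12439183, minus strand) was well above background on 19 of 20 arrays, at intensities of 29.3 to 168. It read -4.004, -3.69, -3.49, -3.82 and -3.48 in uninjured wild-type and -4.03, -3.84, -3.75, -4.09 and -3.97 in uninjured Myd88KO tracheas. After injury it read -3.62, -2.85, -3.04, -2.83 and -3.71 in wild-type and -3.50, -3.33, -2.53, -2.92 and -4.33 in Myd88KO tracheas. The level was higher after injury in 4 of 5 replicate numbers of each genotype, and the injured and uninjured groups of each genotype overlapped. Uninjured Myd88KO and injured wild-type tracheas, which no comparison sets side by side, did not overlap. The share of all tested probes without overlap between these groups was not computed, so this is a description only. The differences were 0.48 ± 0.26 in wild-type (adjusted p = 0.246) and 0.61 ± 0.26 in Myd88KO tracheas (adjusted p = 0.196). Within scan day 1 they were 0.76 and 0.97, and within scan day 2 they were 0.07 and 0.09. With array weights the Myd88KO difference was 0.87 and was called (adjusted p = 0.00723), and without injured Myd88KO replicates 1, 3 and 5 it was 0.81 (adjusted p = 0.033). Between genotypes, Edaradd differed by -0.24 ± 0.26 in uninjured tracheas, lower in the knockout in 5 of 5 replicate numbers, and by -0.11 ± 0.26 in injured tracheas (adjusted p = 1.00 and 0.901). A further Edaradd probe, under the older name A630043P06, was no member by the rule and was well above background on 2 of 20 arrays.

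Eda2r, the X-linked receptor for the other splice form of Eda, was read by probe 1 (X chromosome, 92661474 to 92661533, minus strand), which was well above background on 19 of 20 arrays at intensities of 34.1 to 176. It read -3.46, -2.65, -3.33, -3.40 and -3.43 in uninjured wild-type and -2.80, -3.26, -4.08, -3.03 and -2.82 in uninjured Myd88KO tracheas. After injury it read -2.42, -3.51, -3.25, -3.28 and -2.92 in wild-type and -3.45, -2.51, -2.79, -2.40 and -2.33 in Myd88KO tracheas. The highest mean was that of injured Myd88KO tracheas, and all 4 groups overlapped. The 4 differences between groups lay between 0.05 ± 0.27 and 0.51 ± 0.27, the latter between injured and uninjured Myd88KO tracheas (adjusted p = 0.314). Each of the 4 had opposite signs on the 2 scan days, and that of injured over uninjured Myd88KO tracheas was 0.89 on day 1 and -0.07 on day 2. It was 0.75 (adjusted p = 0.146) without injured Myd88KO replicates 1, 3 and 5. Eda2r probe 2 was well above background on 0 arrays and probe 3 on 3 arrays, all of injured tracheas.

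Tnfrsf19, the related receptor, was read by probe 1 (chromosome 14, 55831784 to 55831843, minus strand), well above background on all 20 arrays at intensities of 1597 to 7139. It read 2.47, 2.75, 2.03, 2.34 and 2.25 in uninjured wild-type and 2.58, 2.48, 2.44, 2.37 and 2.65 in uninjured Myd88KO tracheas. After injury it read 1.58, 2.47, 2.05, 2.72 and 1.22 in wild-type and 2.53, 1.89, 2.88, 1.91 and 2.64 in Myd88KO tracheas. The spread was wider after injury, at SDs of 0.62 and 0.45 against 0.26 and 0.11, and the groups overlapped. The 4 differences between groups lay between -0.36 ± 0.25 and 0.36 ± 0.25 with adjusted p between 0.382 and 1.00. The genotype difference of injured tracheas was -0.18 on scan day 1 and 1.19 on scan day 2. Without injured Myd88KO replicates 1, 3 and 5 it was -0.10, the opposite sign to the 0.36 over all arrays. Tnfrsf19 probe 2, elsewhere along the gene, was well above background on 0 arrays.

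**Figure D3:**
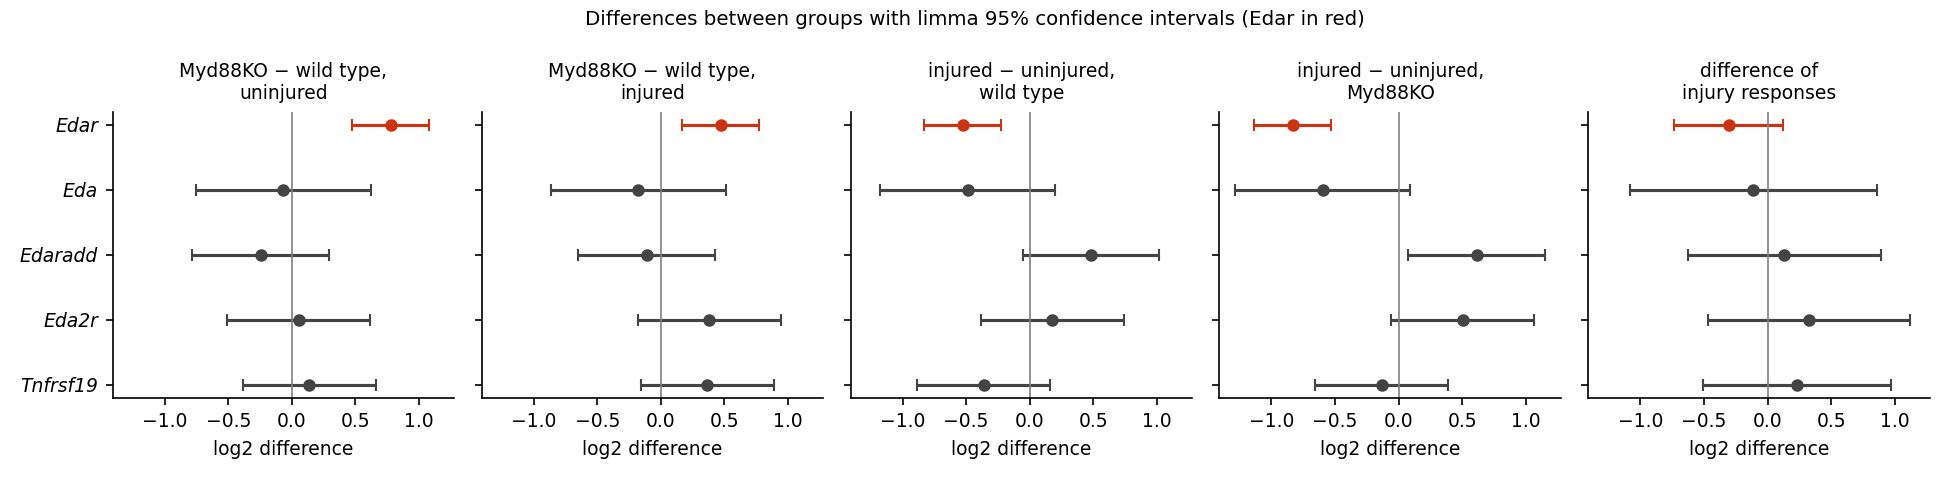
Differences between groups (x axis, log2) of the tested probe of each gene, with limma 95% confidence intervals from 20 arrays; Edar is in red, and its values are descriptions in all panels but that of the injured genotypes. Edar has the narrowest intervals, but it was listed by a test, which favours a small spread. The intervals of the other 4 genes include 0 in all panels except that of Edaradd after injury in Myd88KO (0.08 to 1.15).

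Without Edar, 0 of 4 members were called between uninjured genotypes (0.384% of all tested probes), 0 of 4 after injury of wild-type tracheas (5.26%) and 0 of 4 after injury of Myd88KO tracheas (0.376%). For the difference of responses 0 of 4 were called (limma, 0 at an unadjusted p under 0.05), as were 0% of all tested probes, with 2703 at an unadjusted p under 0.05. With Edar, 0 of 5 were called between injured genotypes (0.38%). Edaradd after injury in Myd88KO tracheas and Edar between injured genotypes were the results with an unadjusted limma p under 0.05. The widths of the intervals allowed genotype differences of Eda in uninjured tracheas from -0.76 to 0.62, of Edaradd from -0.78 to 0.29, of Eda2r from -0.51 to 0.62 and of Tnfrsf19 from -0.39 to 0.66.

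The list of signalling genes of the pathway held 19 genes, from Furin, which cleaves the ligand, to Traf6, Tab1 to Tab3, Map3k7, the IkB kinases, the NF-kB subunits and their inhibitors. All were tested, with 30 probes. None was called between uninjured or injured genotypes, in Myd88KO injury or for the difference of responses, with 0, 5, 2 and 5 probes at an unadjusted p under 0.05 (limma). Of all 26063 tested probes, 1458, 3264, 5077 and 2703 were under it in the same comparisons. The median difference of the list was -0.05 between uninjured genotypes against 0.04 over all tested probes, and the 30 differences ran from -0.54 to 0.35. After injury of wild-type tracheas, 1 probe was called higher and 1 lower, which is 6.67% of the list against 5.26% of all tested probes. Traf1, an NF-kB target that binds receptors of this family, rose from -0.71 to 0.57, by 1.27 ± 0.24 (SE, adjusted p = 0.00247) and in 5 of 5 replicate numbers. In Myd88KO tracheas its difference was 0.32 ± 0.24 (adjusted p = 0.5), and the difference of responses was -0.95 ± 0.35 (adjusted p = 0.391). Ikbkg (NEMO), the regulatory subunit of the IkB kinase complex, fell by 1.1 ± 0.21 (adjusted p = 0.00239) on 1 of its 3 probes. The others differed by -0.57 (adjusted p = 0.221) and -0.005 (adjusted p = 0.992), so the 3 probes disagreed.

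Genes known as targets of Edar in skin appendages were in part below background. Of 15 listed, 9 were tested with 11 probes, while Shh, Fgf20, Dkk4, Wnt10b and Cxcl11 did not pass the filter and Foxi3 was not found under this name. None was called between genotypes or in Myd88KO injury, with medians of 0.12 in uninjured and -0.16 in injured tracheas. The single call was Lgr6, a receptor for R-spondins on epithelial progenitors, which fell by 2.04 ± 0.30 after injury of wild-type tracheas (adjusted p = 0.000479) on 1 of 2 probes. This is 9.09% of the list against 5.26% of all tested probes. Its other probe differed by -1.001 ± 0.34 (adjusted p = 0.0584). In Myd88KO tracheas the 2 probes differed by -1.38 and -1.09 (adjusted p = 0.0204 and 0.0811).

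None of the 10 genes for gland development (17 probes) was called in any comparison, with 2, 1, 2, 7 and 0 probes at an unadjusted p under 0.05 (limma). Of all 26063 tested probes, 1458, 3264, 6886, 5077 and 2703 were under it in the same comparisons. The median difference of the list after injury was -0.50 in Myd88KO and -0.23 in wild-type tracheas, against -0.07 and 0.00 over all tested probes. Lef1, the Wnt effector required for tracheal glands, was singled out after its values were seen because its binding letters were searched in the promoters. Its 2 probes differed by 0.35 ± 0.32 and 0.31 ± 0.23 between uninjured genotypes (adjusted p = 1.00 for both) and by -0.87 ± 0.32 and -0.77 ± 0.23 after injury in Myd88KO tracheas (adjusted p = 0.137 and 0.0672).

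Among 13 tested genes of gland and surface secretions (17 probes), 1 was called in each of 3 comparisons, or 5.88% of the list against 0.38% of all tested probes between injured genotypes, 5.26% in wild-type injury and 0.376% in Myd88KO injury. Lpo, the airway lactoperoxidase, was 2.89 ± 0.47 lower in injured Myd88KO than in injured wild-type tracheas (-0.21 against 2.68, adjusted p = 0.00221). Without injured Myd88KO replicates 1, 3 and 5 the difference was -2.22 and not called (adjusted p = 0.143). In uninjured tracheas its difference was -2.09 ± 0.47 (adjusted p = 0.0478). Bpifa1, a secreted antimicrobial protein of the upper airway, fell after injury by 2.24 ± 0.31 in wild-type (adjusted p = 0.000372) and by 2.36 ± 0.33 in Myd88KO tracheas (adjusted p = 0.00287, a call lost under 7 of 34 alternatives). For Bpifa1, 1 injured Myd88KO array carried an outlier flag of the scanner software and was left out. The list's median after injury was -0.53 and -0.57. Beside these values, club cell markers lay at 7.88 to 8.64 in uninjured and 5.04 to 5.90 in injured wild-type tracheas, with 3 of 6 probes called lower. Ciliated cell markers had 3 of 10 probes called lower there, all of 1 of the 7 genes. In Myd88KO tracheas club cell markers lay at 7.93 to 8.40 in uninjured and 5.37 to 8.15 in injured tracheas, with 1 of 6 probes called lower. The ciliated markers there lay at 1.09 to 1.37 and -1.42 to 2.77, with 0 of 10 probes called (limma). Of the 8 myeloid genes, 4 of 11 probes were called higher over the same step, and their mean level went from -0.10 to 1.31 in uninjured to 1.98 to 4.03 in injured wild-type tracheas. In Myd88KO tracheas they lay at -1.28 to 0.05 and -1.14 to 2.68, with 0 of 11 called (limma). Lyz2 was on both the myeloid list and the list of gland and surface secretions, so these lists share a gene. The part of the club, ciliated and myeloid cells in the gland values was not tested.

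**Figure D4:**
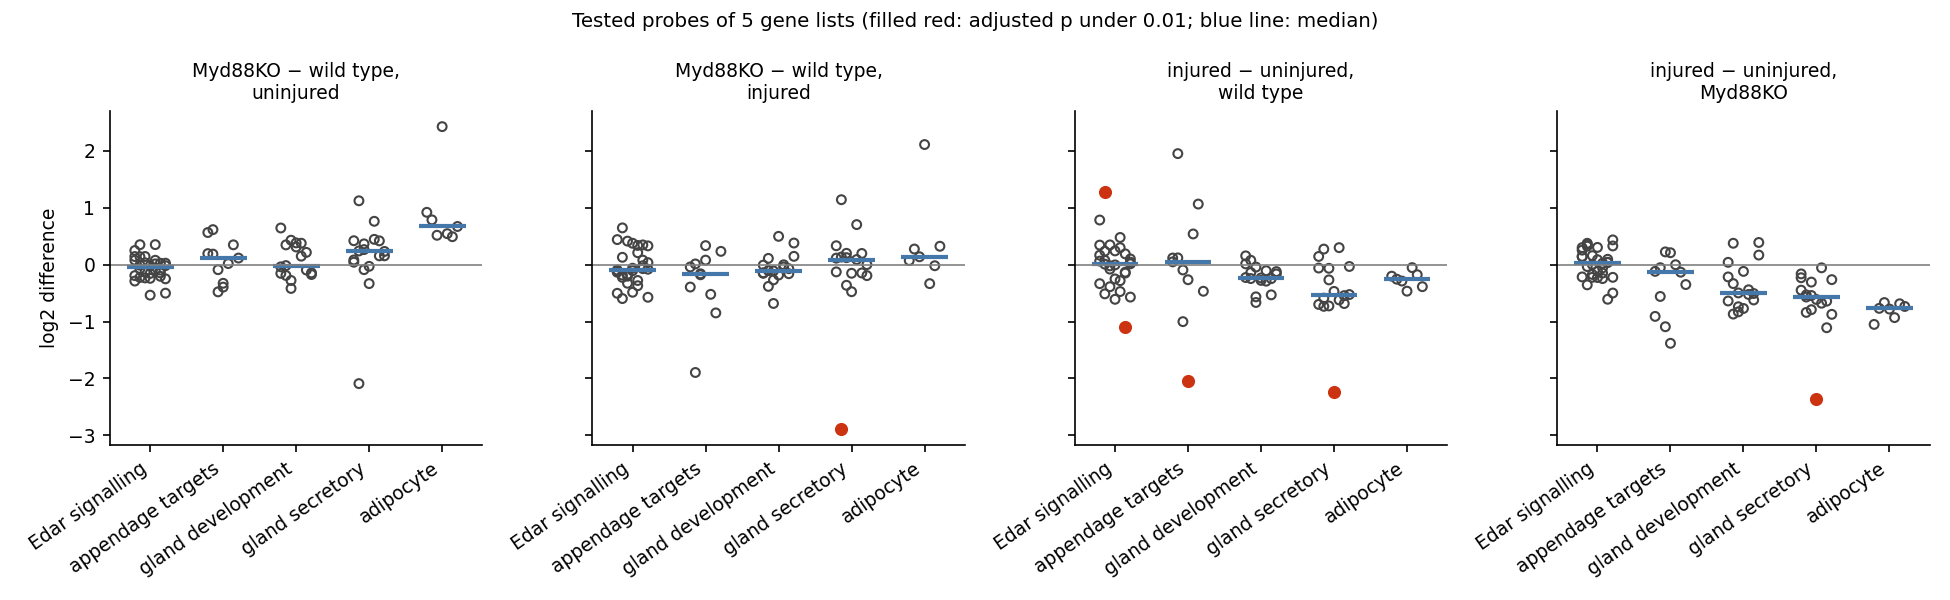
Differences between groups (y axis, log2) of the tested probes of 4 gene lists around Edar and of the adipocyte markers, in the 4 comparisons; filled red points were called at an adjusted p under 0.01 and blue lines are medians. The adipocyte probes lie above 0 between uninjured genotypes with none called, and the few called probes are Traf1, Ikbkg, Lgr6, Bpifa1 and Lpo.

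The probes most like Edar over the 20 arrays belonged to genes outside its pathway lists. Among 25842 probes with a value on every array, the highest Pearson correlations with Edar were those of Hectd3 (0.92), Acss2 (0.92), H2-Q10 (0.91), Igsf21 (0.91) and Acly (0.91). Acss2 makes acetyl-CoA from acetate and Acly from citrate. Acly differed by 1.21 ± 0.21 (SE) between uninjured genotypes and by -1.52 ± 0.21 after injury in Myd88KO tracheas, and Acss2 by -1.12 ± 0.24 after injury of wild-type tracheas. These genes were picked for their likeness to Edar on the same arrays, so their values are a description with no test. The arrays of a group share genotype and treatment, so the 20 points are not independent. For deviations from the group means the highest were Usp20 (0.88), Gstm1 (0.88), Gstm3 (0.86), Cyp2a4 (0.81) and Atxn10 (0.81), with none of the first 5 in common. The correlation with Edar over the 20 arrays was 0.53 for Tnfrsf19, 0.40 for Eda, -0.32 for Eda2r and -0.51 for Edaradd, and within groups it was 0.49, 0.43, -0.59 and 0.04.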

How the data were processed

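RNA of 20 whole tracheas was hybridised to 1-colour (Cy3) Agilent whole mouse genome arrays. The deposited files hold intensity per spot, background-subtracted and detrended by the authors with Agilent Feature Extraction 9.5.1.1 per the file headers, not scaled between arrays, with flags per spot. The authors' deposited value table holds the same intensity rounded, and was an alternative. Here 1639 control spots and 1960 flagged outlier values were left out, spots of a probe were averaged, and log2 intensity was set relative to the 75th percentile of the array. limma 3.58.1 (R 4.3.3) fitted 4 group means over all 20 arrays to 26063 probes well above background on at least 10 arrays. P-values were Benjamini-Hochberg adjusted within each comparison over all of them, and a probe was called under 0.01. Intervals are 95%. The number of arrays limits the precision. The members and lists were chosen with earlier results of these data known. Named genes were all members, Myd88, genes of 4 lists called in a comparison, the 5 probes most like Edar by each measure, and genes called within 5 Mb. Lef1, Cidec and Ucp1 were named after their values were seen. In simulated data of this design, the fit was tested for recovery of set changes. Alternatives covered background correction, scaling, filter, blocks, weights, covariates, 3 injured Myd88KO arrays left out together, the one-way parametric test of the methods, and each array left out. Replicate numbers pair the arrays by slide, since the file headers put 1 array of each group with the same number on each of 5 slides. Deviations of same-numbered arrays from their group means correlated at -0.26 to 0.48, with medians of 0.08 to 0.42 by number. Between arrays of different groups and different numbers they correlated at -0.51 to 0.54, with a median of -0.08. Gene names came from the arrays, updated by accession for 22951 probes and by symbol for 6659 through a RefSeq table (GRCm38.p6). The build of the probe positions is not given in the sources used here.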

Additional observations from a re-analysis of the deposited data

Results flagged for a closer look

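Of 20 groups of 5 arrays tested for the 5 tested probes, 2 held 1 array far from the other 4, and chance flags about 1 in 20 groups. The Edar level of uninjured Myd88KO replicate 3 was -1.54, above the other 4 arrays at -2.08 to -1.93. Without it, all other uninjured Myd88KO arrays still lay above the uninjured wild-type arrays, and the genotype difference was 0.68. The Eda2r level (probe 1) of uninjured wild-type replicate 2 was -2.65, above the other 4 arrays at -3.46 to -3.33. Without it, the genotype difference of Eda2r in uninjured tracheas was 0.21.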

How the results depend on the processing

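Over 25 differences of the 5 tested probes, 850 values were computed under the alternatives, of which 822 kept their direction and, where tested, their side of the threshold. Edar kept its direction in all 5 comparisons under every alternative run. Its uninjured genotype difference lay between 0.54 and 0.82, the lowest with normexp background correction, and its wild-type injury difference was -0.31 with normexp against -0.53. The genotype difference of Edar in injured tracheas lay between 0.20 and 0.55 (adjusted p 0.0716 to 0.904). After injury in Myd88KO tracheas, 1 of 4 tested members (Edaradd, 0.87) was called with array weights, against 0 of 4 otherwise. The cause was not tested.

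Signs turned only for differences that were not called. With the adipocyte level as a covariate, the uninjured genotype differences of Edaradd, Eda and Tnfrsf19 were 0.036, 0.17 and -0.0094, and the injured genotype difference and the difference of responses of Edaradd were 0.0011 and -0.035. With array weights, the injured genotype differences of Edaradd and Eda were 0.19 and 0.15, and the difference of responses of Eda was 0.19. Without injured Myd88KO replicates 1, 3 and 5, the injured genotype differences of Edaradd, Eda and Tnfrsf19 were 0.082, 0.021 and -0.10, and the differences of responses of Eda and Tnfrsf19 were 0.088 and -0.24. With each array left out in turn, the uninjured genotype difference ran from -0.22 to 0.10 for Eda and from -0.047 to 0.27 for Eda2r. The injured genotype difference ran from -0.36 to 0.04 for Eda and from -0.31 to 0.14 for Edaradd, and the difference of responses from -0.29 to 0.11 for Eda and from -0.065 to 0.38 for Edaradd. The adipocyte covariate, the 3 arrays left out together and a percentile over probes well above background on all arrays were chosen after seeing the data.

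With the replicate number, which is also the slide, as a block, the Edar difference in injured tracheas was 0.47 (adjusted p = 0.145) and no call of a member changed. The slide was therefore not fitted separately. Of the other named calls, Myd88 in injured tracheas (adjusted p = 0.018) and Tbata in Myd88KO injury (adjusted p = 0.0101) were lost with this block. The calls of Ikbkg and Lgr6 held under 35 of 35 alternatives and those of Bpifa1 and Tbata in wild-type under 34 of 34, although Tbata was -1.33 with normexp background correction. Those lost were Traf1 under 1, Lpo under 3, Bpifa1 in Myd88KO under 7, Pald1 under 13, ENSMUST00000036576 under 16, Tbata in Myd88KO under 25 and Myd88 under 27. Single arrays ended calls of Bpifa1 (adjusted p up to 0.0143 without injured Myd88KO replicate 2, 3 or 4 or uninjured Myd88KO replicate 3), of Pald1 (up to 0.0218 without any 1 uninjured wild-type array or injured wild-type replicate 1, 2, 3 or 4) and of ENSMUST00000036576 (up to 0.0255 without injured wild-type replicate 1, 2, 4 or 5, uninjured wild-type replicate 1, 2, 3 or 4 or uninjured Myd88KO replicate 1 or 2). They also ended that of Tbata in Myd88KO (up to 0.034, without any 1 array but uninjured wild-type replicate 3 and injured Myd88KO replicate 5) and that of Myd88 (up to 0.0341).

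The number of all probes called was 100, 99, 1372, 98 and 0 in the 5 comparisons, against 46 to 179, 21 to 147, 1049 to 2630, 0 to 2088 and 0 to 4 under other settings. With 1 array left out it was 73 to 108, 77 to 120, 665 to 1843, 6 to 1075 and 0 to 3, with 1075 for Myd88KO injury without injured Myd88KO replicate 5 and 6 without replicate 2 or 4. Without injured Myd88KO replicates 1, 3 and 5 together it was 116, 55, 2598, 1968 and 4. The Eda, Edaradd and Eda2r probes were dim, well above background on 18, 19 and 19 of 20 arrays.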
